A study of Mus musculus with 4 samples.

Results

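Pluripotency genes are the transcription factors, chromatin proteins and signalling genes that keep embryonic stem cells undifferentiated. The values of 10 of them, of 24771 features listed, were compared between aggregates named PSC-derived SG placodes and embryonic submandibular glands (SMGs), and the 10 were chosen by symbol: Pou5f1, Nanog, Esrrb, Klf2, Klf4, Zfp42, Sall4, Utf1, Tdgf1 and Prdm14. PSC-derived SG placodes were aggregates of 129w2 cells, a line of mouse embryonic stem cells (mESCs), seeded at 3000 cells per well and collected on day 10 of differentiation (n = 2). They received 2% Matrigel from day 1, 2 ng/ml BMP4 on day 3, 25 ng/ml bFGF together with 1 μM retinoic acid (RA) on day 4, and 200 ng/ml FGF10 starting on day 6. The reference was total RNA of SMGs of mouse embryos at E12.5 (n = 2), whose strain and dissection are not given in the sources used here. Both groups were labelled as untreated. The placodes came from 1 cell line, and undifferentiated mESCs were not analysed here, so the values have no stem cell reference.

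In mouse embryonic stem cells, the factors encoded by Pou5f1, Sox2 and Nanog bind together at enhancers and hold up one another's genes. Around this core stand factors of the naive state, the state that resembles the preimplantation epiblast: Esrrb, Klf2, Klf4, Zfp42 and Prdm14. Inhibition of GSK3 and MEK, which was how the mESCs of the study were kept, maintains that state. When cells leave it, the naive factors are shut down first and Pou5f1 is silenced later. Most of these genes have other uses in the embryo. Klf2 is active in endothelium and Klf4 in epithelia, Sall4 is used in early progenitors of several tissues, and Esrrb is active in trophoblast and in some cells of the inner ear and retina.

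Expression was given as FPKM, a count of fragments scaled to transcript length and to the size of the library, which lets levels of different genes be set side by side. The depth of each sample is unknown, because FPKM of these files cannot be turned back into reads, and no detection floor is given. FPKM summed to between 361963 and 384773 per sample. Nothing in the sources says that the 2 samples of a group were separate cultures or litters, so p-values measure only the spread between these samples. Markers of the tissues went against the name of the aggregates in part: of 12 markers of salivary epithelium, 8 were lower in the placodes and 2 higher, and the basal keratins Krt5, Krt14 and Krt15 were at 0 in both placode samples. By contrast, summed FPKM of 8 neuronal markers was 1012 and 1047 in the placodes against 98.4 and 87.8 in the SMGs, and that of 8 neural progenitor markers was 782 and 813 against 66.1 and 61.8.

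The placodes held little message of most pluripotency genes, with Esrrb as the exception. Summed over the 10 genes, FPKM was 24.7 and 23.5 in placode samples 1 and 2, of which Esrrb made up 80.8% and 83.1%. In SMG samples 1 and 2 the sum was 14.5 and 17.0, of which Klf2 and Klf4 together made up 97.2% and 97.0%. Both samples of a group reached an FPKM of 1 for Esrrb and Sall4 in the placodes and by Klf2 and Klf4 in the SMGs, 2 of 10 genes in each group, against 50.1% and 50.5% of all listed features. The other 6 genes (Pou5f1, Nanog, Zfp42, Utf1, Tdgf1 and Prdm14) were below 0.7 FPKM in all 4 samples.

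**Figure D1:**
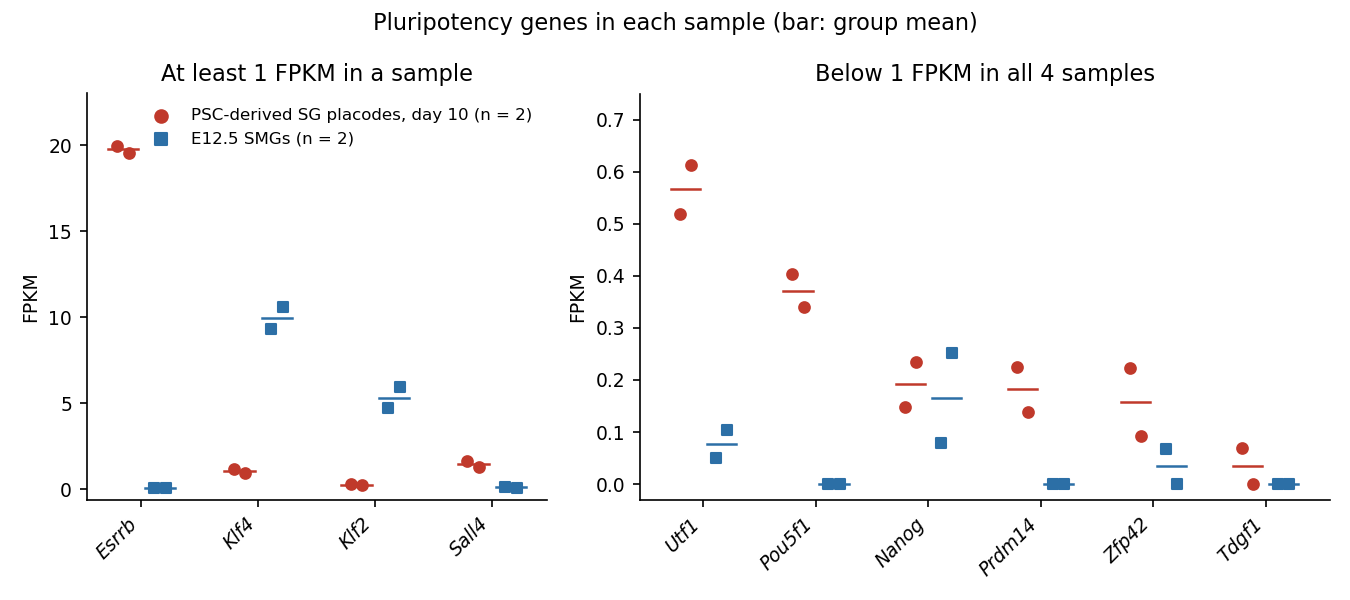
FPKM of the 10 pluripotency genes in each of the 4 samples, with genes at 1 FPKM or more in any sample on the left and the other 6 on the right, on separate linear axes. Red circles are placodes, blue squares are SMGs, and bars are group means. Esrrb stands at 19.95 and 19.56 FPKM in the placodes and at 0.0630 and 0.0628 FPKM in the SMGs, Klf2 and Klf4 are the only genes of the set at or above 1 FPKM in the SMGs, and the samples of Nanog and Tdgf1 overlap.

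Differences between the groups were tested on log2(FPKM + 1) with limma across the 13193 features whose mean FPKM over the 4 samples was at least 1. On this scale a difference is smaller than the ratio of FPKM where levels are low. Only 3 of the 10 genes passed that filter: Esrrb was higher in the placodes, and Klf2 and Klf4 were lower. Esrrb and Klf2 passed only through the group where they were high. Esrrb had a mean of 0.0629 FPKM in the SMGs, and Klf2 had a mean of 0.280 FPKM in the placodes. Klf4 had a mean of 1.09 FPKM in the placodes. A gene low in 1 group can pass only if it is high in the other, so a large difference of such a gene is partly fixed by the filter. Among all tested features 76.2% were called at an adjusted p below 0.05, 35.7% higher and 40.4% lower, so a call alone says little about a gene in this comparison. The median log2 difference of all tested features was -0.05. The remaining 7 genes passed no filter and were fitted only without a minimum, over 20464 features, of which 58.1% were called (27.1% higher and 31.1% lower). In that fit 5 of the 10 genes were higher in the placodes, 2 were lower and 3 did not pass. For 8 of the 10 genes the groups did not overlap, with 6 higher and 2 lower in the placodes, against 77.2% of the features above 0 in any sample (35.8% higher and 41.4% lower). With 2 samples against 2, an exact permutation test of a single gene cannot go below p = 0.333.

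Pou5f1 (ENSMUSG00000024406, GRCm38 chr17:35506018-35510772, plus strand) encodes Oct4, the POU-domain factor without which neither the inner cell mass nor stem cells keep their identity. It was listed at 0.403 and 0.340 FPKM in placode samples 1 and 2 and at 0 in both SMG samples. Both placode samples stood above both SMG samples, yet only 42.4% and 40.9% of all features were below the level of Pou5f1 there. In the fit without a minimum it was 0.46 higher on the log2 scale (95% confidence interval 0.29 to 0.62, adjusted p = 3.51e-03), and no fold is given against a group at 0. Exons of Gm19553 overlap those of Pou5f1 on the other strand. The antisense gene is not among the listed features, and strandedness of the libraries is not given in the sources used here. Reads in the overlapping exons thus cannot be told apart.

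The bases before the first start of Pou5f1 are shown because this gene is the usual test for remaining stem cells. Sequences are from RefSeq (GRCm38.p6), run 5′ to 3′ on the strand of the gene, end before an annotated start of the gene and hold no exon. Capitals mark matches on either strand to 4 motifs. AGGTCA is bound by nuclear receptors. GGGCGG is bound by Sp and Klf factors. ATGCAAA is the core of the octamer, bound by POU factors. ACAATG is bound by Sox factors. Windows were found for 8 of the 10 genes, and none for Sall4 and Prdm14.
Pou5f1, chr17:35505782-35506017, plus strand: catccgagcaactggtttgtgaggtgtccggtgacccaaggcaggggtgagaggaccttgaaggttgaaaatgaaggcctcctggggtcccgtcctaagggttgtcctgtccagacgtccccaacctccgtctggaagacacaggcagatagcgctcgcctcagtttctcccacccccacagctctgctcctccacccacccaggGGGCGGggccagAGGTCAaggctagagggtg
In it, 1 GGGCGG ends 39 bases and 1 AGGTCA ends 27 bases before the RefSeq start. Of 32851 promoter windows of 250 bases in the same table, 32.7% hold GGGCGG and 14.02% hold AGGTCA, so neither match sets the window apart.

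Nanog (ENSMUSG00000012396, chr6:122707489-122714633, plus strand) encodes the homeodomain factor that lets stem cells renew without LIF. It was listed at 0.149 and 0.234 FPKM in placode samples 1 and 2 and at 0.0793 and 0.251 FPKM in SMG samples 1 and 2. The highest and the lowest of the 4 values were both from SMGs, so the groups overlapped. Without a minimum the log2 difference was 0.04 with a 95% confidence interval of -0.23 to 0.30 (adjusted p = 0.779). The bases before its first start are shown because Oct4 and Sox2 are known to act on this gene through a joined site there.
Nanog, chr6:122707239-122707488, plus strand: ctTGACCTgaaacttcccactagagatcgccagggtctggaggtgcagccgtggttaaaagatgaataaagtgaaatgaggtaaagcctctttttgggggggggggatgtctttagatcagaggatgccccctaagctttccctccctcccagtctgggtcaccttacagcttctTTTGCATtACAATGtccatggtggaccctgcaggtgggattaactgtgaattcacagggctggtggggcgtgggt
In it ATGCAAA on the other strand ends 68 bases and ACAATG 61 bases before the start, with 1 base between them. Of all windows 4.12% hold the first motif and 10.7% the second, and both were searched with the Nanog site in mind. The capitals near the 5′ end are AGGTCA on the other strand, 242 bases before the start, a motif found in 14.02% of all windows. Levels of the genes of this core were unlike: Sox2 stood at 131.3 and 130.0 FPKM in the placodes while Pou5f1 and Nanog were below 0.7.

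Esrrb (ENSMUSG00000021255, chr12:86361117-86521628, plus strand) encodes an orphan nuclear receptor that can stand in for Nanog in holding the naive state. It was at 19.95 FPKM in placode sample 1, 19.56 in placode sample 2, 0.0630 in SMG sample 1 and 0.0628 in SMG sample 2. The samples of each group were close to each other and the groups lay far apart. Esrrb was above 84.0% and 83.7% of all features in the placode samples and above 31.2% and 30.7% in the SMG samples. On the log2 scale it was 4.29 higher in the placodes (SE 0.09, 95% confidence interval 4.06 to 4.51, limma adjusted p = 3.69e-07), and the ratio of mean FPKM was 314. That ratio rests on SMG values close to 0. An increase of at least 2-fold in the same test was found for 14.1% of the tested features.

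Esrrb has 6 annotated transcripts and RefSeq starts far apart, and both starts are shown because gene-level FPKM does not say from which of them the message came.
Esrrb, first start, chr12:86360867-86361116, plus strand: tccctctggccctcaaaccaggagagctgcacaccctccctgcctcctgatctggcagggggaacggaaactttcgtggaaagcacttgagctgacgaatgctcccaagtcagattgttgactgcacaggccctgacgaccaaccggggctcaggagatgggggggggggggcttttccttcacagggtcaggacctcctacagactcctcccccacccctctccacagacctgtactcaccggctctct
Esrrb, start inside the gene, chr12:86421394-86421643, plus strand: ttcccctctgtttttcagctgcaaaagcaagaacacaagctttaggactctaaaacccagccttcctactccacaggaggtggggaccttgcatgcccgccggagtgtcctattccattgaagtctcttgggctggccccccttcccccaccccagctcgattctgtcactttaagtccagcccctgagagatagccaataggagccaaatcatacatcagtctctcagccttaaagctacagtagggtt
No match to the 4 motifs was found in either window, which says only that these letters are absent there. The genes on both sides of Esrrb were tested too. Gpatch2l, 69333 bases to the left, was 0.24 higher in the placodes on the log2 scale (adjusted p = 0.0194), and Vash1, 157072 bases to the right, was 0.72 higher (adjusted p = 4.10e-05).

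Both relatives of Esrrb in the estrogen-related receptor family were also higher in the placodes. Esrrg, known from neurons and other cells with high energy demand, was at 19.5 and 19.1 FPKM in the placodes and at 0.295 and 0.266 FPKM in the SMGs, a log2 difference of 3.98 (SE 0.09, adjusted p = 4.39e-07). Levels of Esrrg and Esrrb in the placodes were thus alike. Esrra, which is widely expressed, was at 15.8 and 14.6 FPKM against 11.8 and 12.8, a log2 difference of 0.29 (adjusted p = 0.0133). Over the 4 samples, the 3 tested genes whose log2(FPKM + 1) lay nearest to that of Esrrb were Gad1, Skor1 and Fam181a, at Euclidean distances of 0.155, 0.158 and 0.180. Gad1, which makes the transmitter GABA, was at 18.3 and 19.2 FPKM in the placodes and at 0 and 0.0355 FPKM in the SMGs. Skor1, a corepressor known from spinal cord neurons, was at 20.6 and 21.7 against 0.0344 and 0.0942. Such likeness over 4 samples of 2 groups shows little more than a shared difference between the groups.

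Neural markers were on the same side as Esrrb. All 8 neuronal markers were tested and all were higher in the placodes, Tubb3 at 345 and 365 FPKM against 41.6 and 37.1. Of 8 neural progenitor markers 7 were tested and higher, Fabp7 at 343 and 367 FPKM against 14.6 and 10.9, and the eighth, Olig2, was at 0 in both SMG samples. In bulk RNA a difference in the number of cells of a type and one in RNA per cell cannot be told apart. The part of neural cells in the value of Esrrb was not tested.

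Klf2 (ENSMUSG00000055148, chr8:72319033-72321656, plus strand) encodes a Krüppel-like zinc-finger factor of the naive network that is also induced by blood flow in endothelium. It was at 0.298 and 0.263 FPKM in placode samples 1 and 2 and at 4.74 and 5.94 FPKM in SMG samples 1 and 2. All SMG values were above all placode values. Its log2 difference, placodes minus SMGs, was -2.30 (SE 0.13, 95% confidence interval -2.62 to -1.98, adjusted p = 1.32e-05), with mean FPKM 19.0 times as high in the SMGs. A decrease of at least 2-fold was found for 15.2% of the tested features. The bases before its start, shown with those of Klf4 because both genes were lower in the placodes, hold 2 matches to GGGCGG.
Klf2, chr8:72318812-72319032, plus strand: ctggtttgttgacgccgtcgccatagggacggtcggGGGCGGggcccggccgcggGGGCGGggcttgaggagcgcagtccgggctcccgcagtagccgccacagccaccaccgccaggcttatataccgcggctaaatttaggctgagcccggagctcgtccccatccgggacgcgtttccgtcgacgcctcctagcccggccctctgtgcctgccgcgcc
Klf4, chr4:55532476-55532725, minus strand: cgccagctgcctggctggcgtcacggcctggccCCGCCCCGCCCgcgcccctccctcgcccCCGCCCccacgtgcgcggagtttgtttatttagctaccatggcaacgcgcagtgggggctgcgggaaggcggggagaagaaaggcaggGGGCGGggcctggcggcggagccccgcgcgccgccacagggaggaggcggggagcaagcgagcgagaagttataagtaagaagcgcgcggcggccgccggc
The window of Klf4 holds 4 such matches, of which 2 overlap. Of the 8 genes with a window 6 hold GGGCGG, as do 32.7% of all windows, so these matches do not set Klf2 and Klf4 apart. G and C make up 71.5% of the Klf2 window and 74% of the Klf4 window.

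Endothelial markers were lower in the placodes, as Klf2 was. Their sum over 10 genes was 18.1 and 16.2 FPKM in the placodes against 185 and 193 FPKM in the SMGs, and all 10 were lower in the placodes. Cdh5, the adhesion molecule of endothelial junctions, was at 8.07 and 7.60 FPKM in the placodes against 30.3 and 35.4. Tie1, an endothelial receptor, was at 0 and 0.122 FPKM against 17.1 and 17.2. This direction was not particular to endothelium. Lower too were all 10 mesenchymal markers, all 6 tested erythroid markers and all 6 tested markers of macrophages and leukocytes. Of 12 markers of salivary epithelium 8 were lower and 2 higher. The part of endothelial cells in the level of Klf2 was not tested.

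Klf4 (ENSMUSG00000003032, chr4:55527143-55532466, minus strand) encodes 1 of the factors used to reprogram somatic cells and is needed for the barrier of stratified epithelia. It was at 1.21 and 0.966 FPKM in placode samples 1 and 2 and at 9.35 and 10.6 FPKM in SMG samples 1 and 2. The groups did not overlap, and mean FPKM was 9.16 times as high in the SMGs. The log2 difference was -2.39 (SE 0.11, 95% confidence interval -2.67 to -2.12, adjusted p = 6.42e-06). Most markers of salivary epithelium and all markers of mesenchyme were lower in the placodes too. Of the 12 epithelial markers 8 were lower, Sox9 and Krt19 were higher, and Krt8 and Krt18 did not pass. Summed over 12 genes, the epithelial markers were at 118 and 125 FPKM in the placodes against 676 and 637, and all 10 mesenchymal markers were lower, with sums of 219 and 215 against 2173 and 2121. Pitx1, a factor of oral epithelium, was at 0.539 and 0.429 FPKM against 245 and 253, whereas Sox9, which marks the early salivary epithelium and also neural and cartilage progenitors, was higher in the placodes, at 42.1 and 43.0 against 9.31 and 7.66. The part of these cells in the level of Klf4 was not tested.

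**Figure D2:**
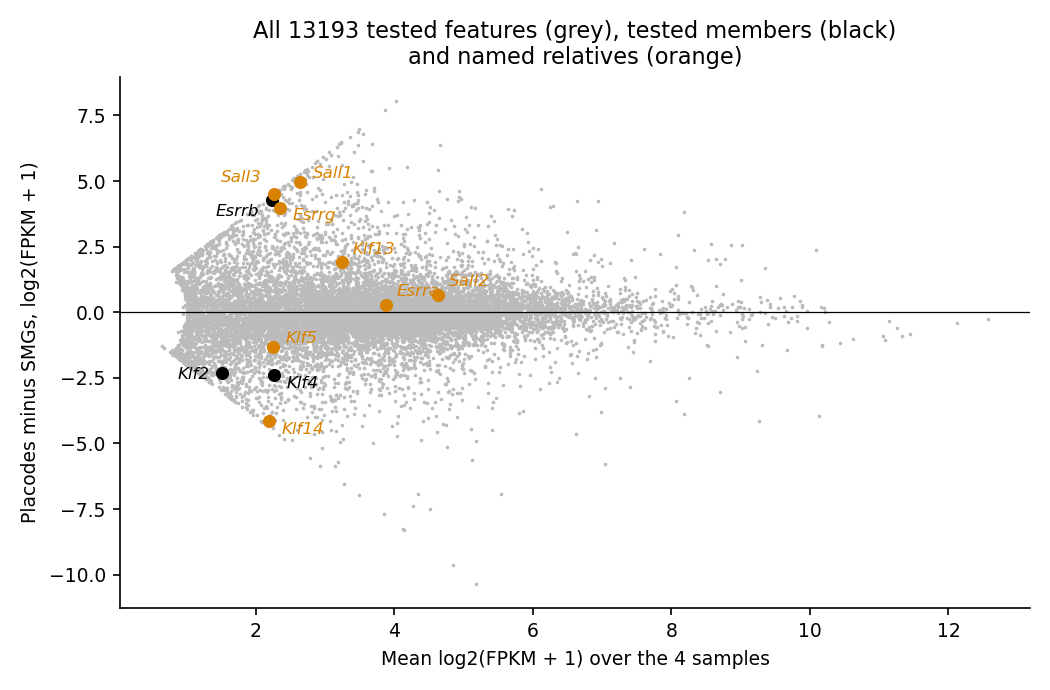
Difference of each of the 13193 tested features between placodes and SMGs in log2(FPKM + 1), against its mean over the 4 samples. Black points are Esrrb at 4.29, Klf2 at -2.30 and Klf4 at -2.39, orange points are relatives of the pluripotency genes named in the text, and grey points are all other features.

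The Klf family did not differ in a single direction, and neither did all tested features, of which 35.7% were higher and 40.4% lower. Of its 17 listed genes, 14 were tested, and 4 were higher in the placodes (Klf7, Klf10, Klf11 and Klf13), 8 were lower (Klf2, Klf3, Klf4, Klf5, Klf6, Klf12, Klf14 and Klf16), and Klf9 and Klf15 did not pass. Klf5, which shares targets with Klf2 and Klf4 in mESCs, was at 2.11 and 1.90 FPKM in the placodes and at 7.42 and 5.77 FPKM in the SMGs, a log2 difference of -1.33 (SE 0.13, adjusted p = 1.61e-04). The largest difference of the family was that of Klf14, an imprinted gene, at 0.0908 and 0.0786 FPKM against 18.5 and 18.1. In the other direction Klf13 was at 17.6 and 17.0 FPKM in the placodes against 3.63 and 4.17. Summed over the 17 genes, the family was at 106 and 99.6 FPKM in the placodes and at 125 and 129 FPKM in the SMGs.

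**Figure D3:**
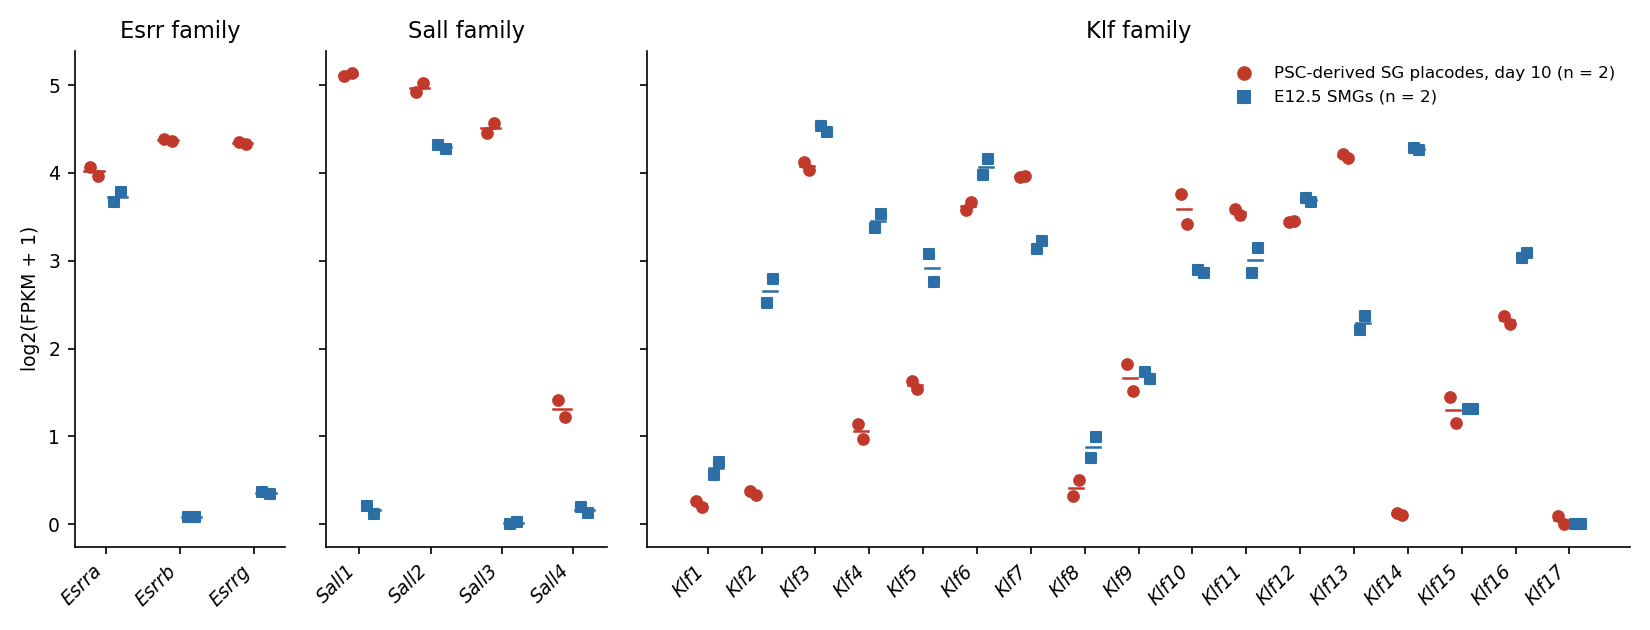
Genes of the Esrr, Sall and Klf families in the 4 samples, as log2(FPKM + 1), with red circles for placodes, blue squares for SMGs and bars for group means. Esrrb and Esrrg, and Sall1 and Sall3, stand between 19.1 and 34.1 FPKM in the placodes and between 0 and 0.295 FPKM in the SMGs, whereas the Klf genes lie on both sides.

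Zfp42 (ENSMUSG00000051176, chr8:43295063-43306980, minus strand) encodes Rex1, a zinc-finger protein whose message is a standard reporter of the naive state. It was listed at 0.222 and 0.0926 FPKM in placode samples 1 and 2 and at 0.0683 and 0 FPKM in SMG samples 1 and 2. Both placode values were above both SMG values, but the 2 placode values themselves differed by more than the lower of them differed from SMG sample 1. Without a minimum the log2 difference was 0.16 with a confidence interval of -0.06 to 0.38 (adjusted p = 0.165). Of the 8 genes with a promoter window, Zfp42 and Nanog held ATGCAAA, in Zfp42 at 178 bases before the start. Its relatives Yy1, a general factor, and Yy2 were set beside it: Yy1 was at 24.8 and 25.8 FPKM in the placodes and at 24.9 and 24.8 in the SMGs (log2 difference 0.03, adjusted p = 0.684), and Yy2 was below 0.7 FPKM in all 4 samples.

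Prdm14 (ENSMUSG00000042414, chr1:13113457-13127163, minus strand) encodes a PR-domain protein that represses FGF signalling and DNA methyltransferase genes in naive cells and is needed by primordial germ cells. It was listed at 0.226 and 0.138 FPKM in the placodes and at 0 in both SMG samples. Without a minimum it was 0.24 higher on the log2 scale (confidence interval 0.07 to 0.41, adjusted p = 0.0296). Germ cell markers were looked at beside it. Summed over 8 genes they were at 6.72 and 5.01 FPKM in the placodes against 7.47 and 6.83, and Dppa3 was at 0 in all 4 samples. The only marker tested, Tfap2c, was at 3.98 and 3.15 FPKM against 3.54 and 3.25 (log2 difference 0.05, adjusted p = 0.737). Without a minimum, 7 of the markers were fitted, and 3 were lower in the placodes (Prdm1, Sycp3 and Dnd1) and 0 higher. Over all features of that fit 31.1% were lower and 27.1% higher.

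Sall4 (ENSMUSG00000027547, chr2:168748332-168767943, minus strand) encodes a spalt-like zinc-finger factor that works with Oct4 and with the NuRD complex. It was at 1.66 and 1.33 FPKM in placode samples 1 and 2 and at 0.143 and 0.0980 FPKM in SMG samples 1 and 2. Both placode samples were above 1 FPKM and both SMG samples far below it, but the mean over the 4 samples was under the filter. Without a minimum Sall4 was 1.15 higher in the placodes on the log2 scale (SE 0.10, confidence interval 0.87 to 1.43, adjusted p = 1.10e-03), and the ratio of mean FPKM was 12.4. Exons of Gm14261, which is not listed either, overlap those of Sall4 on the other strand. Here too reads in the overlapping exons cannot be told apart.

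Other spalt-like genes were far more abundant in the placodes than Sall4. Sall1 was at 33.4 and 34.1 FPKM against 0.154 and 0.0893 in the SMGs, a log2 difference of 4.95 (SE 0.09, adjusted p = 2.22e-07). Sall3 was at 20.8 and 22.7 FPKM against 0 and 0.0206. Both are known from neural and limb progenitors, among other tissues. Sall2, at 29.2 and 31.6 against 19.0 and 18.3 FPKM, was 0.67 higher on the log2 scale. All 3 tested genes of the family were thus higher in the placodes, beside 35.7% of all tested features.

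Utf1 (ENSMUSG00000047751, chr7:139943789-139945112, plus strand) encodes a chromatin protein of undifferentiated cells that is known as a direct target of Oct4 and Sox2. It was at 0.518 and 0.613 FPKM in placode samples 1 and 2 and at 0.0502 and 0.105 FPKM in SMG samples 1 and 2. The groups did not overlap, with a ratio of mean FPKM of 7.29. Without a minimum it was 0.54 higher on the log2 scale (confidence interval 0.34 to 0.74, adjusted p = 3.92e-03).

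Tdgf1 (ENSMUSG00000032494, chr9:110939603-110946158, minus strand) encodes Cripto, the co-receptor that Nodal needs to signal. It was listed at 0.0702 FPKM in placode sample 1 and at 0 in the other 3 samples. That single value gave a log2 difference of 0.05 with a confidence interval of -0.11 to 0.20 (adjusted p = 0.506), and the groups overlapped at 0. Ligands of the pathway (Nodal, Gdf1, Gdf3), the feedback inhibitors Lefty1 and Lefty2, the co-receptor Cfc1, the receptor Acvr1c and the nuclear partner Foxh1 did not pass the filter. Receptors shared with activin were abundant: Acvr2a was at 33.6 and 34.2 FPKM in the placodes against 9.58 and 8.74, a log2 difference of 1.78 (SE 0.07, adjusted p = 2.34e-06). In all, 6 of 14 genes of the pathway were tested. The 3 higher were Acvr1b, Acvr2a and Acvr2b, Smad3 was lower, and Smad2 and Smad4 did not pass. Of all tested features 35.7% were higher and 40.4% lower.

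Genes that work with the pluripotency genes were set beside them by list. Their counts stand beside 35.7% higher and 40.4% lower over all tested features. Of 18 other genes of the naive network 6 were tested, of which Sox2 and Gbx2 were higher in the placodes, Nr5a2, Tbx3 and Klf5 were lower, and Tet1 did not pass (adjusted p = 0.141). Sox2, the partner of Oct4 in stem cells and a factor of neural progenitors, was at 131.3 and 130.0 FPKM against 6.53 and 5.33. Nr5a2, an orphan receptor that can activate Pou5f1, was at 0.770 and 0.589 FPKM against 48.3 and 51.9. The stem cell genes Dppa3 and Tcl1 were at 0 in all 4 samples. Dppa5a, which was not tested, was at 0.985 and 0.581 FPKM in the placodes and at 0 in both SMG samples. Dppa2 and Eras were also above 0 only in the placodes. Without a minimum 16 genes of this list were fitted, of which 3 were higher in the placodes and 7 lower, beside 27.1% and 31.1% of all features of that fit. Of 8 genes of the postimplantation epiblast 4 were tested. Sox3, Pou3f1 and Zic2 were higher in the placodes and are also genes of the neural plate, and Dnmt3b, the de novo methyltransferase, was lower, at 1.29 and 1.63 FPKM against 4.61 and 4.12. Sox3 had the largest difference of that list, at 72.5 and 69.1 FPKM against 0.0761 and 0.242. Fgf5, the usual mark of the postimplantation epiblast, was not tested, and was at 0.989 and 0.958 FPKM against 0.361 and 0.559.

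Regulators of the pluripotency genes differed in both directions, as did all tested features, of which 35.7% were higher and 40.4% lower. Of 6 genes of the LIF pathway, which supports mESCs through Stat3, 5 were tested. Il6st, the shared receptor gp130, was at 8.32 and 8.51 FPKM in the placodes against 39.5 and 39.4, a log2 difference of -2.10 (adjusted p = 6.71e-07). Jak1 and Socs3 were lower as well and Lifr was higher, whereas Stat3 did not pass (log2 difference 0.18, adjusted p = 0.0509) and was called higher when samples were rescaled to an equal sum or by median ratios. Of 10 repressors and silencers of Pou5f1 9 were tested, 3 were higher and 5 lower. Nr6a1, the germ cell nuclear factor that shuts Pou5f1 down in the embryo, was at 5.58 and 5.57 FPKM in the placodes against 0.452 and 0.496 (log2 difference 2.16, adjusted p = 6.32e-06). Nr2f2 was lower, at 20.9 and 21.8 against 77.1 and 82.1 FPKM, and the related Nr2f1 did not pass, at 96.0 and 96.9 against 95.6 and 94.4 FPKM (log2 difference 0.02, confidence interval -0.09 to 0.13, adjusted p = 0.661). The call of Dnmt3a as lower (adjusted p = 0.0448) was lost under both of those rescalings and without a minimum.

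Cofactors of the pluripotency proteins were at 1 FPKM or more in both placode samples for all 12 genes and in both SMG samples for 11, Sall1 being the exception. All 12 were tested, 3 were higher in the placodes (Sall1, Hdac2 and Chd4), 7 were lower, and Cbfa2t2 and Rbbp4 did not pass. Over all tested features 35.7% were higher and 40.4% lower. Apart from Sall1 the log2 differences of the cofactors lay between -1.03 and 0.47. The lowest was that of Rbbp7, a histone-binding subunit of several chromatin complexes, and Trim28, a corepressor, was at 129 and 131 FPKM in the placodes against 180.0 and 179 in the SMGs. Median log2 differences of the tested genes were -0.58 for the other naive genes, 2.14 for the epiblast genes and -0.67 for the LIF pathway. They were 0.52 for the Nodal-Cripto pathway, -0.41 for the repressors, -0.30 for the cofactors and 0.16 for relatives of the pluripotency genes. The median of all tested features was -0.05. These medians leave out genes low in both groups. Sox3, Pou3f1 and Zic2 passed the filter only through the placodes, with SMG means of 0.159, 0.184 and 0 FPKM. The median of the epiblast genes is thus partly fixed by the filter and is no trait of the whole list.

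**Figure D4:**
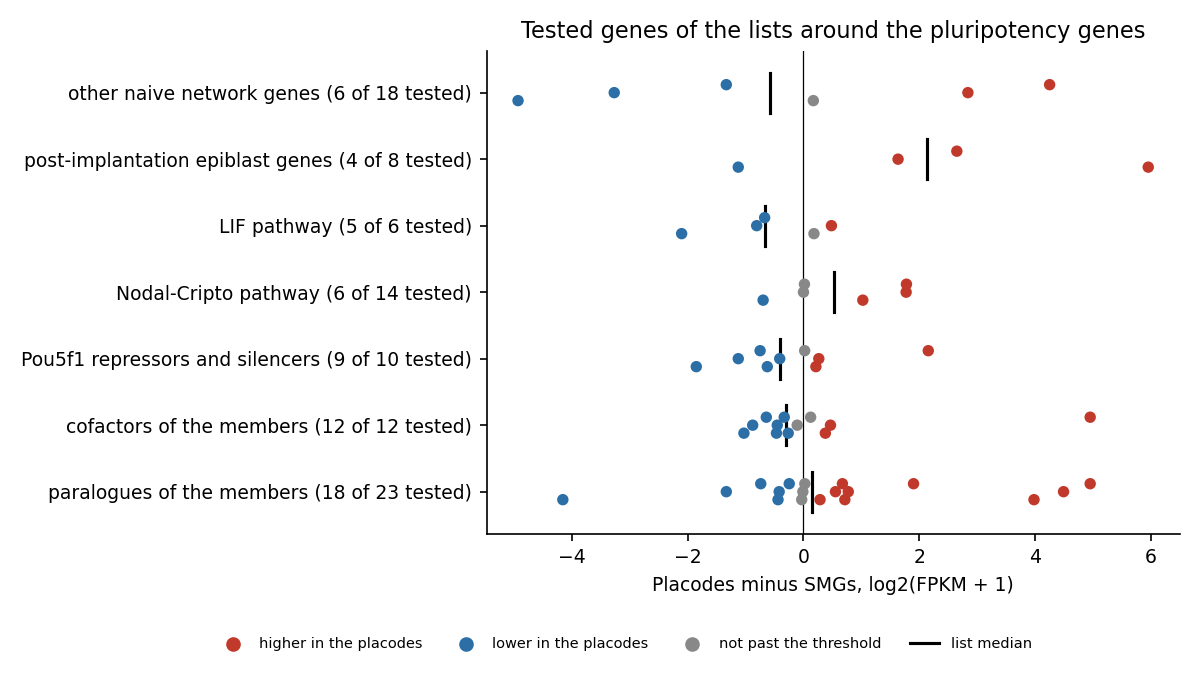
Difference of each tested gene between placodes and SMGs in log2(FPKM + 1), by list, with the number of tested and listed genes beside each name. Red points were higher and blue points lower at an adjusted p below 0.05, grey points did not pass, and the black bar is the median of the list. The medians lie between -0.67 for the LIF pathway and 2.14 for the epiblast genes, and every list holds points on both sides of 0. Genes with a mean below 1 FPKM are left out, which bears on the medians.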

How the data were processed

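The authors mapped paired-end reads of 2 samples of PSC-derived SG placodes and 2 of E12.5 SMGs with HISAT2 to the genome of the mouse, and deposited 1 table with the FPKM of each feature. The submitters' processing notes name the builds GRCm38 and GRCh38. Neither the version of HISAT2 nor the annotation, the strandedness or the tool behind FPKM is given in the sources used here. FPKM held no steps of whole reads, so depth is unknown. No 2 samples held the same values, and 0 columns of sample values were left unused.

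Groups were taken from the sample labels. The 10 genes and all gene and marker lists were chosen with earlier results of these data known. FPKM was transformed as log2(FPKM + 1), with a pseudocount of 1. The limma package 3.58.1 (R 4.3.3; eBayes, trend on) was fitted to the 13193 features whose mean FPKM reached 1, on group alone. Its two-sided p-values received Benjamini-Hochberg adjustment across all of these. A feature was called at an adjusted p below 0.05. Of 22036 Ensembl genes, 22022 were found in GENCODE M21, the source of coordinates. Promoters were taken from RefSeq.

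Named were all 10 genes, their relatives, the genes of each list with the highest mean FPKM in either group and the called genes with the highest and lowest difference, and the 3 tested genes nearest to Esrrb. Neighbours of Esrrb, and other genes named to say which genes of a list passed, were at 0 or were not tested, were chosen after their values were seen. Alternatives were pseudocounts of 0.1 and 0.01, 3 other scalings, no minimum or one of 5, a block for the replicate number, the trend turned off, robust eBayes, removal of assembled loci, and each sample left out in turn. In simulated data of 13193 genes, 67 of 100 genes changed by 1 on the log2 scale and 21 of 100 changed by 0.5 were recovered. Of 12993 unchanged genes, 3 were called. Far fewer genes were changed there than the 76.2% of features called in the main fit, and the adjustment of p-values depends on that share. Recovery with as many changed features as in the main fit was not tested.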

Additional observations from a re-analysis of the deposited data

How the results depend on the processing

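Esrrb, Klf2 and Klf4 kept their direction and their call under each alternative in which they were tested. The largest adjusted p-values came from fits with 1 sample left out: 1.44e-03 for Esrrb, 3.93e-03 for Klf2 and 2.48e-03 for Klf4. In such fits the lone sample of a group is assumed to vary like the others. Without a minimum of mean FPKM, 7 of the 10 pluripotency genes were called in place of 3, since 20464 features were tested. At a minimum of 5, Klf2 was not tested and 2 were called. Leaving out 1 sample gave 3 called pluripotency genes each time, between 42 and 45 called genes over the lists beside 47, and between 8501 and 9087 called features beside 10049. The size depended on the pseudocount. At pseudocounts of 0.1 and 0.01 the log2 difference was 6.93 and 8.08 for Esrrb. For Klf2 it was -3.83 and -4.20, and for Klf4 -3.09 and -3.19. After rescaling to an equal sum per sample the differences of Esrrb, Klf2 and Klf4 were 5.57, -3.08 and -2.77. That rescaling raised all values before the pseudocount of 1 was added, so it acted like a smaller pseudocount. Median-ratio scaling gave 4.31, -2.27 and -2.35, and quantile normalization gave 4.30, -2.25 and -2.35. Samples share replicate numbers, but deviations of same-numbered samples correlated at -0.03 over 13193 features, so the numbers were not taken as pairs. With the replicate number as a block, 3 pluripotency genes, 47 genes of the lists and 10043 features were called. The balance over all tested features did turn with scaling. Their median log2 difference of -0.05 became 0.006 after rescaling to an equal sum and 0.004 with median-ratio scaling. Features called higher and lower were 4716 and 5333 in the main fit. They were 5043 and 4961 after rescaling to an equal sum, and 5079 and 5019 with median-ratio scaling. Genes under 1 FPKM are limited by a depth that is unknown.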

Other observations

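Blood cell markers were lower in the placodes for all 6 tested genes of the erythroid list and all 6 of the macrophage and leukocyte list. Summed over 8 genes, erythroid markers were at 0.0258 and 0.255 FPKM in the placodes against 2573 and 2524 in the SMGs, and 5 of the 8 were at 0 in both placode samples. The embryonic globin Hbb-y was at 0 in both placode samples and at 1336 and 1266 FPKM in the SMGs. Summed over 8 genes, macrophage and leukocyte markers were at 1.73 and 2.09 FPKM against 26.7 and 23.6. Most of the placode sum was the receptor Csf1r, at 1.68 and 1.99 FPKM against 4.23 and 3.93, the only marker of that list at 1 FPKM or more in both placode samples.

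Genes next to the pluripotency genes were looked at after their values had been seen. Slc2a3, a glucose transporter of neurons, lies 13176 bases from Nanog and was at a mean of 115 FPKM in the placodes and 8.23 FPKM in the SMGs (log2 difference 3.65, limma adjusted p = 5.43e-07), while Nanog itself was below 0.7 FPKM in all 4 samples. On its other side Dppa3 was at 0 in all 4 samples. Slco5a1, the left neighbour of Prdm14, was at a mean of 9.39 FPKM against 0.518 (log2 difference 2.78, adjusted p = 3.15e-06). Tcf19, 1962 bases from Pou5f1, was lower in the placodes, at a mean of 5.85 FPKM against 17.0 (log2 difference -1.40, adjusted p = 3.91e-05).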
